A study of Mus musculus with 32 samples.

Results

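The 43 genes described here are type I interferon response genes from the table of 18588 genes. They were chosen by name, with earlier results of these data known. All 43 were measured in the CD11b-positive microglia of both genotypes at the ages of 2, 4, 6 and 8 months. Type I interferons are cytokines of the antiviral defence that bind a receptor of the subunits IFNAR1 and IFNAR2. The receptor's kinases phosphorylate transcription factors of the STAT family, among them STAT2, which bind together with IRF9 and switch on many genes through a short DNA element, the interferon-stimulated response element (ISRE). The proteins of these genes sense viral RNA and DNA, block the entry, copying and release of viruses, tag proteins with the ubiquitin-like protein ISG15, or feed back on the pathway. In microglia, the resident macrophages of the brain, they are known to respond to viruses and to injury of the brain.

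The rTg4510 mice carried human 4-repeat tau with the P301L mutation behind a tetracycline operon-responsive element, together with a CaMKIIα-driven tetracycline-controlled transactivator that restricts expression to forebrain neurons, so the microglia themselves were not targeted. The WT mice were littermates without either transgene, and therefore also lacked the transactivator, so effects of mutant tau and of the transactivator cannot be told apart. All animals were female, and each library came from RNA of the pooled forebrains of 8 to 10 animals, so that the spread between libraries is one between pools. The authors kept 28 of the 32 libraries, with 4 for either genotype at 2 and 6 months, but 3 at 4 and 8 months (replicates 1, 2 and 4 at 4 months and replicates 1, 2 and 3 at 8 months). The other 4 had failed their RNAseq QC and enter only where all 32 libraries are named. Values are log2 gene signals, and a log2 fold change is the mean of rTg4510 minus the mean of WT with its standard error (SE). A gene was called differentially expressed (DEG) at a false discovery rate (FDR) under 0.05 and a change above 1.5 fold, from limma's linear model with Benjamini-Hochberg adjustment over all 18588 genes at an age. The paper gives an approximate number of reads per sample but not the total of each library, so differences in depth are unknown.

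The labelled cell type was checked against its markers. The group means of the microglia markers Cx3cr1 and Tmem119 lay between 13.1 and 13.93 and between 10.73 and 11.81 on the log2 scale. The summed signals of markers of other cells reached 11.56 for astrocytes, 11.37 for border macrophages, 10.82 for neutrophils, 10.59 for oligodendrocytes, and at most 9.14 for monocytes, T and NK cells, plasmacytoid dendritic cells, endothelial cells and neurons. Of the B cell markers, Ighm had group means of 12.15 to 12.85, while those of Cd79a, Cd79b and Ms4a1 were 2.62 to 5.18. Among the microglia markers, Tmem119, Sall1 and Gpr34 were DEGs with lower rTg4510 signals at 4 months and both later ages, as were Fcrls at 2 and 8 months and Itgam at 6 months. Of 10 neutrophil markers, 8 at 6 months and 7 at 8 months were lower in rTg4510, among them S100a8, S100a9 and Ngp. At 6 months their summed signal was 8.98 to 9.24 in rTg4510 and 9.73 to 10.71 in WT, and at 8 months it was 9.07 to 9.75 against 10.52 to 10.74. No neutrophil marker was at the floor of the table in all libraries. Of 8 monocyte markers 4 were lower and 1 was higher in rTg4510 at 6 months, and of 6 astrocyte markers 3 were lower at 8 months, while Gfap was higher at 6 and 8 months. The summed astrocyte markers lay below WT without overlap at 4 months (9.79 to 10.06 against 10.16 to 10.48), 6 months (9.49 to 9.77 against 10.21 to 10.45) and 8 months (9.64 to 10.14 against 10.33 to 11.56). Those of plasmacytoid dendritic cells lay above WT, with 8.49 to 8.81 against 8.22 to 8.45, 8.85 to 9.14 against 8.33 to 8.64, and 8.78 to 9.01 against 8.27 to 8.71. Of their 5 measured markers Cox6a2 was a DEG at these ages (log2 fold changes 2.33, 2.99 and 2.5), and of the others Pacsin1 was higher and Ccr9 lower at 4 months only. Of 6 measured T and NK cell markers, Klrb1c was higher at all 4 ages. Ncr1 was lower at 4 months, and Nkg7 and Gzmb at 6 months. Of 7 endothelial markers, Pecam1 was lower and Flt1 higher at 4, 6 and 8 months, and Ly6c1 and Cdh5 were lower at 6 months. At 4 months Ccr2 of monocytes, Clec10a of border macrophages, and Cd79a and Cd79b of B cells were lower. At 6 months Lyve1 of border macrophages and Snap25 and Gria2 of neurons were lower. The part of these cells in the results that follow was not tested. In bulk RNA fewer cells of a type and less RNA per cell cannot be told apart.

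At 2 months none of the 43 genes was a DEG. At 4 months 7 genes were up-regulated and 2 were down-regulated, at 6 months 11 and 3, and at 8 months 14 and 2. The order of the up-regulated counts was not stable, since that of 6 months was 5 without replicate 1 or 2 of rTg4510 or replicate 2 of WT, where that of 4 months was 7. With all 32 libraries the counts were 7, 4 and 10, and with the compared groups alone 3, 8 and 7. Over all genes, 1.58% were up-regulated and 0.403% down-regulated at 2 months. The shares of all genes were 9.47% and 4.33% at 4 months, 11.3% and 8.54% at 6 months, and 10.5% and 5.37% at 8 months. Of the 43 genes, 16.3%, 25.6% and 32.6% were up-regulated at 4, 6 and 8 months. The down-regulated genes amounted to 4.65%, 6.98% and 4.65% of the 43. Because the 43 genes had been chosen with earlier results of these data known, these shares are a description and no test. The median log2 fold change of the 43 genes was 0.13, 0.25, 0.32 and 0.44 at 2, 4, 6 and 8 months, beside 0.014, -0.037, -0.035 and -0.014 over all genes. With no DEG among them at 2 months, 9 of the 43 genes had an unadjusted p under 0.05, beside 3069 of all 18588 genes. Without the minimum fold 1 of the 43 genes passed, Lgals3bp.

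**Figure D1:**
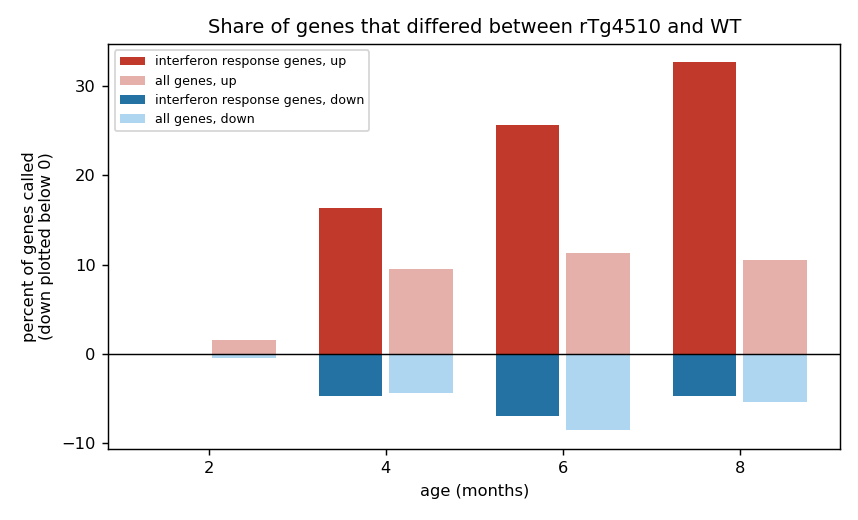
Percent of the 43 interferon response genes and of all 18588 genes that were DEGs at each age (x axis, months), with up-regulated genes above 0 and down-regulated genes below 0. The up-regulated share of the 43 genes is 0% at 2 months and 32.6% at 8 months, where that of all genes is 10.5%. The 43 genes were chosen with earlier results of these data known.

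Of the 43 genes, 16 were up-regulated at 1 or more ages, 3 were down-regulated, and 24 were DEGs at no age. At 4, 6 and 8 months alike, 6 genes were up-regulated (Zbp1, Ifit2, Usp18, Bst2, Ifi44 and Lgals3bp) and 2 were down-regulated (Gbp3 and Gbp7). Shares of all genes over several ages are not given here, so these counts describe the 43 genes alone. The map of fold changes shows that the down-regulated genes were guanylate-binding proteins. All 3 of this group were down-regulated at 6 months, beside 8.54% of all genes. At 4 and 8 months 66.7% of the group were, beside 4.33% and 5.37% of all genes. Trex1 was up-regulated at 4 and 8 months, Oas1a, Oasl2 and Slfn2 at 6 and 8 months, Isg15 and Rsad2 at 6 months, and Dhx58, Ifi204, Trim25 and Slfn5 at 8 months.

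**Figure D2:**
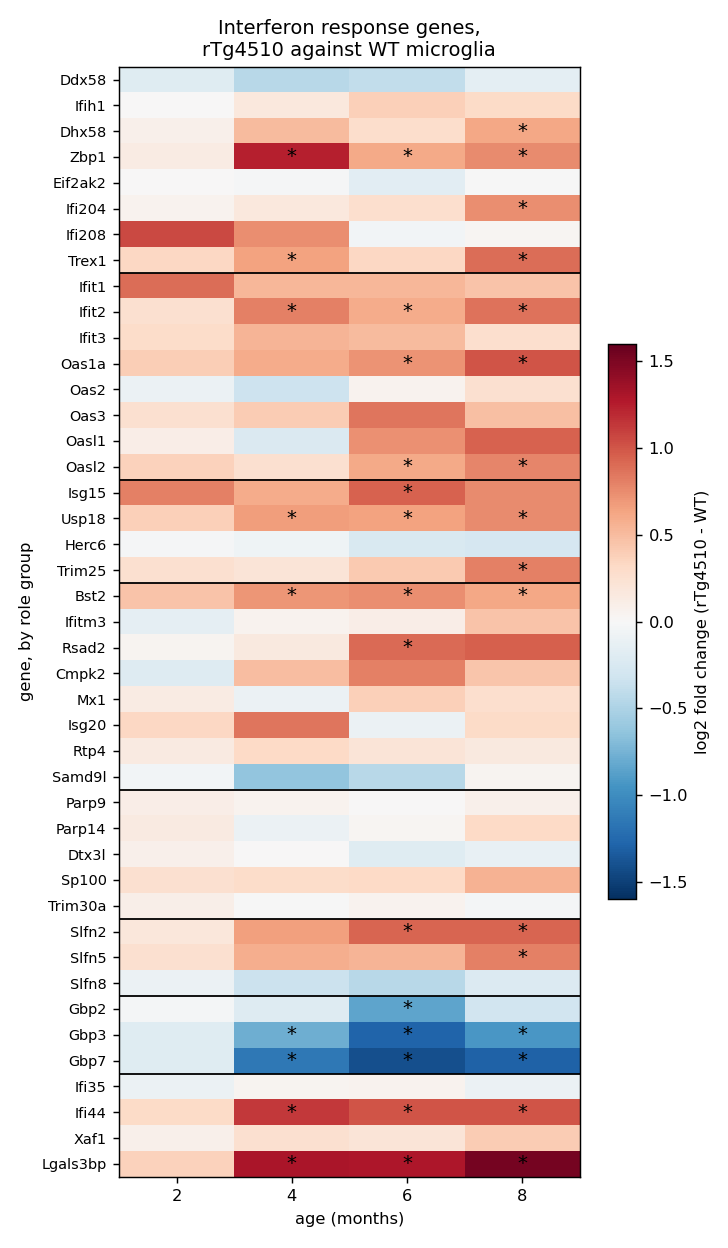
Log2 fold change (colour, rTg4510 minus WT) of the 43 genes in rows, grouped by role with lines between the groups, at each age in columns (months). Stars mark DEGs. Lgals3bp has the largest increase (1.53 at 8 months) and Gbp7 the largest decrease (-1.41 at 6 months) among the marked values.

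The groups were also compared without a model. All rTg4510 libraries lay above all WT libraries for 5, 13, 12 and 19 of the 43 genes at 2, 4, 6 and 8 months, where the shares over all genes were 7.49%, 19.1%, 18.2% and 21.2%. They lay below all WT libraries for 0, 5, 5 and 3 genes, beside 3.51%, 17.5%, 14.6% and 15.5% of all genes. At 2 months the 5 genes were Ifit1, Trim25, Bst2, Sp100 and Lgals3bp, of which Lgals3bp and Bst2 kept this order at every age.

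Promoters are shown for 5 genes whose signals differed most steadily or whose role is central, to place the fold changes beside the element that defines the pathway. The sequences are those of RefSeq on GRCm38.p6, from 250 bases before to 50 bases after the annotated start of the gene, written 5′ to 3′ on the strand of the gene, and are 300 bases long. Isg15, the ubiquitin-like modifier, starts on the minus strand (chr4:156200769-156201068). Bst2, which encodes tetherin, also lies on the minus strand (chr8:71537423-71537722). Gbp3 (chr3:142559794-142560093) and Gbp7 (chr3:142530086-142530385) lie side by side on the plus strand, and Lgals3bp on the minus strand (chr11:118401910-118402209). For Gbp3 the promoter with matches is shown, and its other listed promoter held none. Capitals mark matches to the letters of the ISRE, 2 copies of GAAA with 2 bases of any kind between them, on either strand, and Lgals3bp has none in this window. Ifi44 and Ifit2, also up-regulated at 4, 6 and 8 months, are not shown, and their listed promoters held no match. Only the gap of 2 bases was searched. Copies of GAAA with a wider gap, as in the promoters of Lgals3bp and Ifi44, were not counted.
Isg15: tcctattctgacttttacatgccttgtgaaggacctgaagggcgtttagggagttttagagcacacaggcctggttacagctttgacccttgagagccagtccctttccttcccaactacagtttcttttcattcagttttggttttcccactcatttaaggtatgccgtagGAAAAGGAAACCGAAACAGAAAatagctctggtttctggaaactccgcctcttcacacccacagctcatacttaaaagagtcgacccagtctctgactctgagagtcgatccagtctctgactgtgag
Bst2: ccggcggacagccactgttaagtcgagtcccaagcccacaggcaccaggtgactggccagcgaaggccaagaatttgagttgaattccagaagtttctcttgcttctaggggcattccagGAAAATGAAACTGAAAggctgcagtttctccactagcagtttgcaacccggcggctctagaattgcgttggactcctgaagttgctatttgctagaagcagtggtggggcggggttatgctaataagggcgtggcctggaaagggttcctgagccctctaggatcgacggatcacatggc
Gbp3: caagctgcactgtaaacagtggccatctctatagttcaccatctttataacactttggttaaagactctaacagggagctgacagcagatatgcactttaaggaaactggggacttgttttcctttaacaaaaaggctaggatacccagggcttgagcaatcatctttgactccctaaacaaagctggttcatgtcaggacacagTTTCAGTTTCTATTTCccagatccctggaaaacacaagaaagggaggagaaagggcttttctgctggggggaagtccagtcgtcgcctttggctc
Gbp7: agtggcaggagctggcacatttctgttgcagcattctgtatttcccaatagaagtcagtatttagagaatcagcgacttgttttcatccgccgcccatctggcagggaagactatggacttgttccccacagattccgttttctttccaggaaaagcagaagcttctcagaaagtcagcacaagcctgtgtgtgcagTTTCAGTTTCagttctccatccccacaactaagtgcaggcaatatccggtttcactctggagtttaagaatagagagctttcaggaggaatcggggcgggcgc
Lgals3bp: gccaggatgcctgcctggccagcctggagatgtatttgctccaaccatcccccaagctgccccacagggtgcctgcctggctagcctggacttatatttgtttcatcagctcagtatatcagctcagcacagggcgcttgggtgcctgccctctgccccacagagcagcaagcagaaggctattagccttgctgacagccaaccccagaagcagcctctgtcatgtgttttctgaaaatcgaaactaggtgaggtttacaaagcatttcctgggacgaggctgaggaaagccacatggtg

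In Isg15 3 overlapping matches covered bases 78 to 57 before the start, in Bst2 2 overlapping matches covered bases 130 to 115, in Gbp3 2 covered bases 45 to 30, and in Gbp7 1 covered bases 53 to 44. A promoter was listed for 34 of the 43 genes, all but Dhx58, Zbp1, Ifi204, Oas2, Usp18, Mx1, Rtp4, Parp9 and Parp14, and 18 of these 34 (52.9%) held a match, beside 3.99% of all 27025 genes with a promoter of this length. The letters of the gamma-activated site, TTCNNNGAA, which reads the same on both strands, were found in 8 of the 34 genes (23.5%) and in 9.55% of all genes. Matches of one motif were counted whether or not they overlapped the other. The ISRE letters stood in all 3 down-regulated genes, in 5 of the 12 up-regulated genes with a listed promoter, and in 10 of the 19 genes that were DEGs at no age. The most frequent form, GAAACTGAAA, was shared by 6 genes, the down-regulated Gbp3 and Gbp7 and the up-regulated Bst2 and Oas1a among them. Up-regulated and down-regulated genes thus both held the element. The promoters of the 34 genes held 28 matches. Of these, 22 lay before the start and none farther than 156 bases from it. Matches were counted in each promoter, so a site of Slfn8 that lies in 2 overlapping promoters was counted in both. A match is a description of the letters and no proof of binding. Genes without a match could hold copies of GAAA at another spacing, as Lgals3bp and Ifi44 did.

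Among the 8 genes grouped as sensors of viral RNA and DNA, 2 were up-regulated at 4 months, 1 at 6 months and 4 at 8 months. These are 25%, 12.5% and 50% of the group, beside 9.47%, 11.3% and 10.5% of all genes. The group includes Trex1, which clears DNA and is not itself a sensor. Zbp1 encodes a sensor of Z-form nucleic acid that can start inflammatory cell death, and lies on chr2:173206612-173218959. Its log2 signal at 4 months was 2.67, 3.0 and 3.26 in WT and 4.02, 4.14 and 4.48 in rTg4510, with no overlap. The log2 fold change was 1.24 (SE 0.225, FDR 0.000272), and 2 of these 3 WT libraries lay within 3 inferred counts of the lowest value of their library. At 6 months the signals of Zbp1 were 3.75, 3.56, 3.83 and 4.02 in WT and 4.50, 4.80, 3.87 and 4.44 in rTg4510, so that replicate 3 of rTg4510 lay inside the WT range (log2 fold change 0.61, FDR 0.0183). At 8 months they were 3.79, 3.79 and 4.09 against 4.80, 4.54 and 4.58 (log2 fold change 0.75, FDR 0.0167).

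Trex1, an exonuclease that clears DNA from the cytosol, had signals of 5.48, 5.92 and 6.10 in WT and 6.70, 6.84 and 6.63 in rTg4510 at 8 months (log2 fold change 0.89, SE 0.204, FDR 0.00218). The groups did not overlap. The increase at 4 months (0.64, FDR 0.0264) was -0.02 when all 32 libraries were used. The gene overlaps a read-through transcript, Atrip-trex1, so the reads of both could be mixed. Dhx58, which encodes the RNA sensor LGP2, and Ifi204, a sensor of DNA, were up-regulated at 8 months (log2 fold changes 0.62 and 0.74, FDR 0.00589 and 0.00268). Ifi204 lay at 5.47, 5.49 and 5.50 in the rTg4510 libraries, above the WT values of 4.65, 5.21 and 4.39. Ifi204 has related neighbours in its family, Ifi208 among them. How reads of these genes were divided is not known, so its value is uncertain.

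The other 4 genes of this group were DEGs at no age. Ifih1, which encodes the RNA helicase MDA5, had a log2 fold change of 0.38 at 6 months (FDR 0.000824), and Ddx58, which encodes the related helicase RIG-I, had -0.40 (FDR 0.000102). Both stayed under the minimum fold. All rTg4510 libraries were above WT for Ifih1 and below WT for Ddx58, whose 4 rTg4510 values at 6 months lay within 5.78 to 5.81 against 6.09 to 6.28 in WT. Eif2ak2, which encodes the RNA-dependent kinase PKR, had log2 fold changes between -0.17 and 0.01 over the 4 ages. Ifi208 was within 3 inferred counts of the lowest value in 11 of 28 libraries, and its log2 fold change of 1.05 at 2 months had an SE of 0.486 (FDR 0.281).

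In the IFIT and OAS families 1 of 8 genes was up-regulated at 4 months and 3 at 6 and at 8 months. These are 12.5%, 37.5% and 37.5%, beside 9.47%, 11.3% and 10.5% of all genes. IFIT proteins bind viral RNA that lacks the cap marks of the host, and OAS enzymes make an oligoadenylate messenger that turns on RNase L. Ifit2 had log2 signals of 8.45, 8.77 and 8.60 in WT and 9.48, 9.30 and 9.63 in rTg4510 at 8 months (log2 fold change 0.87, SE 0.189, FDR 0.00143). Its log2 fold change was 0.81 at 4 months (FDR 0.00286) and 0.59 at 6 months (FDR 0.00784), and at these ages too no WT library reached an rTg4510 library. With the replicate number as a block, the FDR of Ifit2 at 6 months was 0.0524.

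Oas1a lay at 4.44, 4.64 and 3.67 in WT and at 5.06, 5.37 and 5.31 in rTg4510 at 8 months (log2 fold change 1.0, SE 0.243, FDR 0.00363). At 6 months its log2 fold change was 0.72 (FDR 0.011), and that of Oasl2 was 0.60 (FDR 0.0368) and reached 0.78 at 8 months (FDR 0.0263). Oas1a belongs to a cluster of near-identical genes, and how reads of these were divided is not known. Ifit1 and Ifit3 were DEGs at no age, with log2 fold changes of 0.45 to 0.89 and of 0.27 to 0.54. Ifit1 had its largest difference at 2 months (0.89, SE 0.28, FDR 0.068), when the WT libraries reached 6.45 and the rTg4510 libraries began at 6.74. Oas2 lay between -0.33 and 0.25. Oas3 varied widely among replicates, from 5.21 to 6.81 in WT at 8 months, and its log2 fold change of 0.86 at 6 months had an SE of 0.377 (FDR 0.0852).

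The ISG15 system attaches ISG15 to target proteins and removes it again. Usp18 encodes the protease that removes ISG15 and that also restrains the interferon receptor. Its log2 signals at 8 months were 4.50, 4.12 and 4.26 in WT and 5.02, 5.2 and 4.93 in rTg4510, and the groups did not overlap at 4, 6 or 8 months. The log2 fold changes of Usp18 were 0.67, 0.64 and 0.76 at these ages (FDR 0.0201, 0.00751 and 0.00786). Trim25, a ligase that activates RIG-I, was up-regulated at 8 months (0.81, SE 0.0987, FDR 1.76e-06), with 6.41, 6.39 and 6.37 in rTg4510 against 5.47, 5.53 and 5.75 in WT.

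Isg15 itself spread widely. At 6 months its log2 signals were 4.01, 3.27, 4.59 and 4.21 in WT and 5.36, 4.73, 5.21 and 4.55 in rTg4510, so that replicate 4 of rTg4510 lay below the highest WT library. The log2 fold change was 0.94 (SE 0.359, FDR 0.0481), close to the threshold, and with 1 library left out at a time the call held in 10 of 28 fits. At the other ages it was 0.59 to 0.81 with FDR values of 0.205 to 0.345. Herc6, which encodes the mouse ligase for ISG15, had log2 fold changes of -0.27 to -0.02.

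Of the 8 genes grouped as acting against the entry, copying or release of viruses, Bst2 was a DEG at 4, 6 and 8 months and Rsad2 at 6 months. The up-regulated shares of this group were 12.5%, 25% and 12.5% at these ages, beside 9.47%, 11.3% and 10.5% of all genes. Bst2 encodes tetherin, which holds budding viruses at the cell surface (chr8:71534255-71537472). The log2 signals of Bst2 were 4.56, 4.72, 4.78 and 4.85 in WT and 5.23, 5.07, 5.43 and 5.01 in rTg4510 at 2 months. At 4 months they were 4.85, 4.60 and 4.63 against 5.82, 5.42 and 4.97, at 6 months 4.64, 4.84, 4.76 and 4.39 against 5.25, 5.72, 5.36 and 5.27, and at 8 months 4.82, 4.60 and 4.86 against 5.27, 5.53 and 5.34. All rTg4510 libraries lay above the WT libraries of their age. The log2 fold changes of Bst2 were 0.46, 0.71, 0.74 and 0.62 (FDR 0.0814, 0.00386, 0.000514 and 0.00997), so the gene passed from 4 months on.

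Rsad2 encodes viperin, which makes a chain-terminating nucleotide, and its neighbour Cmpk2 supplies a precursor of it. Rsad2 lay at 5.75, 5.86, 6.09 and 5.71 in WT and at 6.89, 7.47, 6.24 and 6.44 in rTg4510 at 6 months (log2 fold change 0.90, SE 0.311, FDR 0.0288). With the replicate number as a block its FDR was 0.0674, while Cmpk2 at 6 months passed with the block (log2 fold change 0.81, FDR 0.0455) and not without it (FDR 0.159). At 8 months the log2 fold change of Rsad2 was 0.96 with an FDR of 0.0544, and 1 WT library (7.29) lay among the rTg4510 values of 7.13 to 7.52. Ifitm3, Mx1, Isg20, Rtp4 and Samd9l were DEGs at no age. The annotation of GRCm38.p6 lists Mx1 as a transcribed pseudogene. Ifitm3, which blocks the fusion of viruses with the membrane, had log2 fold changes of -0.14 to 0.45, and those of Samd9l ranged from -0.63 to 0.04.

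None of the 5 genes of ADP-ribosylation, the nuclear body and the TRIM family (Parp9, Parp14, Dtx3l, Sp100 and Trim30a) was a DEG at any age. Of all genes, 9.47%, 11.3% and 10.5% were up-regulated at 4, 6 and 8 months, and 4.33%, 8.54% and 5.37% were down-regulated. Sp100, a protein of nuclear bodies, came nearest at 8 months, with 6.06, 5.94 and 6.12 in rTg4510 against 5.11, 5.78 and 5.58 in WT (log2 fold change 0.55, FDR 0.00416), under the minimum fold. The log2 fold changes of Parp9, whose product pairs with that of Dtx3l, ranged from 0.01 to 0.10. The 95% interval of Parp9 at 8 months, from -0.13 to 0.28, excludes a change of 1.5 fold (0.58 on the log2 scale). Dtx3l lay at 7.36, 7.29, 7.25 and 7.20 in WT and at 7.13, 7.05, 7.13 and 6.99 in rTg4510 at 6 months, below WT in all libraries (log2 fold change -0.20, FDR 0.0636).

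Of the Schlafen genes, which restrain growth and translation, Slfn2 was up-regulated at 6 and 8 months and Slfn5 at 8 months. Slfn2 lay at 6.02, 6.22, 6.35 and 6.38 in WT and at 7.16, 7.38, 7.48 and 6.66 in rTg4510 at 6 months (log2 fold change 0.93, SE 0.216, FDR 0.00197). At 8 months its log2 fold change was again 0.93 (SE 0.249, FDR 0.00785). Slfn5 at 8 months had a log2 fold change of 0.80 (FDR 0.0135), which became 0.0615 as an FDR with the replicate number as a block. Slfn8 went the other way and was below WT in all rTg4510 libraries at 4 and 6 months, with -0.34 and -0.45 (FDR 0.0229 and 0.000623), under the minimum fold. Slfn8 lies in a cluster of similar genes.

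The guanylate-binding proteins are large GTPases that attack the vacuoles of intracellular microbes and respond to interferon gamma as well as to type I interferons. Gbp7 (chr3:142530336-142550151) gave the largest decrease of the 43 genes. Its log2 signals at 2 months were 7.02, 7.04, 7.11 and 7.12 in WT and 6.77, 6.88, 6.80 and 7.06 in rTg4510, with 1 rTg4510 library inside the WT range. At 4 months they were 7.54, 7.22 and 7.05 against 6.03, 6.08 and 6.28, at 6 months 7.37, 7.26, 7.22 and 7.21 against 6.07, 6.09, 5.58 and 5.69, and at 8 months 7.14, 7.17 and 7.18 against 5.89, 5.78 and 5.94. From 4 months on every rTg4510 library lay below every WT library. The log2 fold changes of Gbp7 were -0.20, -1.14, -1.41 and -1.29 (SE 0.106 to 0.123, FDR 0.389, 3.81e-07, 1.14e-09 and 5.83e-08).

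Gbp3 (chr3:142560016-142573213) lay at 5.26, 4.84, 5.40 and 5.29 in WT and at 4.84, 5.2, 5.16 and 4.82 in rTg4510 at 2 months, where the groups overlapped. At 6 months it lay at 5.74, 5.01, 5.30 and 5.38 against 3.75, 4.46, 3.91 and 4.18, with no overlap. The log2 fold changes of Gbp3 were -0.19, -0.78, -1.28 and -0.93 (FDR 0.661, 0.00492, 3.38e-06 and 0.00101). Gbp2 was down-regulated at 6 months, from 5.2, 4.91, 5.36 and 5.21 in WT to 4.55, 4.93, 3.91 and 3.94 in rTg4510 (log2 fold change -0.84, FDR 0.00977), with replicate 2 of rTg4510 inside the WT range. At 8 months its log2 fold change was -0.31 (SE 0.278, FDR 0.465). The genes are neighbours on chromosome 3 with similar sequences, and reads could be shared between them. From a list of other interferon-induced genes, Gbp5 was also down-regulated at 4, 6 and 8 months (log2 fold changes -0.73, -0.78 and -0.60), as was Gbp8 (-1.27, -1.87 and -1.78), and Gbp4 at 6 months (-0.73). Gbp6, of the same list, was a DEG between the genotypes at no age. From 2 to 8 months Gbp4 and Gbp6 were up-regulated in rTg4510, and Gbp4 was so in WT as well.

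Lgals3bp (chr11:118392747-118401959), a secreted glycoprotein that binds galectins, gave the largest increase. Its log2 signals at 2 months were 6.63, 6.95, 6.71 and 6.98 in WT and 7.24, 7.11, 7.39 and 6.99 in rTg4510, so the lowest rTg4510 library barely exceeded the highest WT library. At 4 months they were 6.91, 6.88 and 6.72 against 8.10, 8.12 and 8.23, at 6 months 6.95, 6.76, 7.06 and 6.92 against 8.10, 8.23, 8.21 and 8.32, and at 8 months 6.89, 6.69 and 7.04 against 8.28, 8.60 and 8.33. The WT values thus changed little with age, while all rTg4510 values lay far above them from 4 months on. The log2 fold changes of Lgals3bp were 0.37, 1.31, 1.29 and 1.53 (SE 0.101 to 0.116, FDR 0.0317, 3.39e-08, 1.82e-09 and 3.42e-09), which at 8 months is 2.89 fold.

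Ifi44 (chr3:151730922-151749910), whose product restrains the growth of viruses, was 5.18, 5.25 and 5.0 in WT and 6.16, 6.45 and 6.23 in rTg4510 at 4 months (log2 fold change 1.13, SE 0.19, FDR 0.000115). At 2 months replicate 2 of rTg4510 (5.09) had been as low as the lowest WT library, and the log2 fold change was 0.30 (FDR 0.386). It was 1.0 at both 6 and 8 months (FDR 6.03e-05 and 0.000357). Ifi35 and Xaf1 were DEGs at no age, with log2 fold changes of -0.10 to 0.05 and of 0.08 to 0.41.

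**Figure D3:**
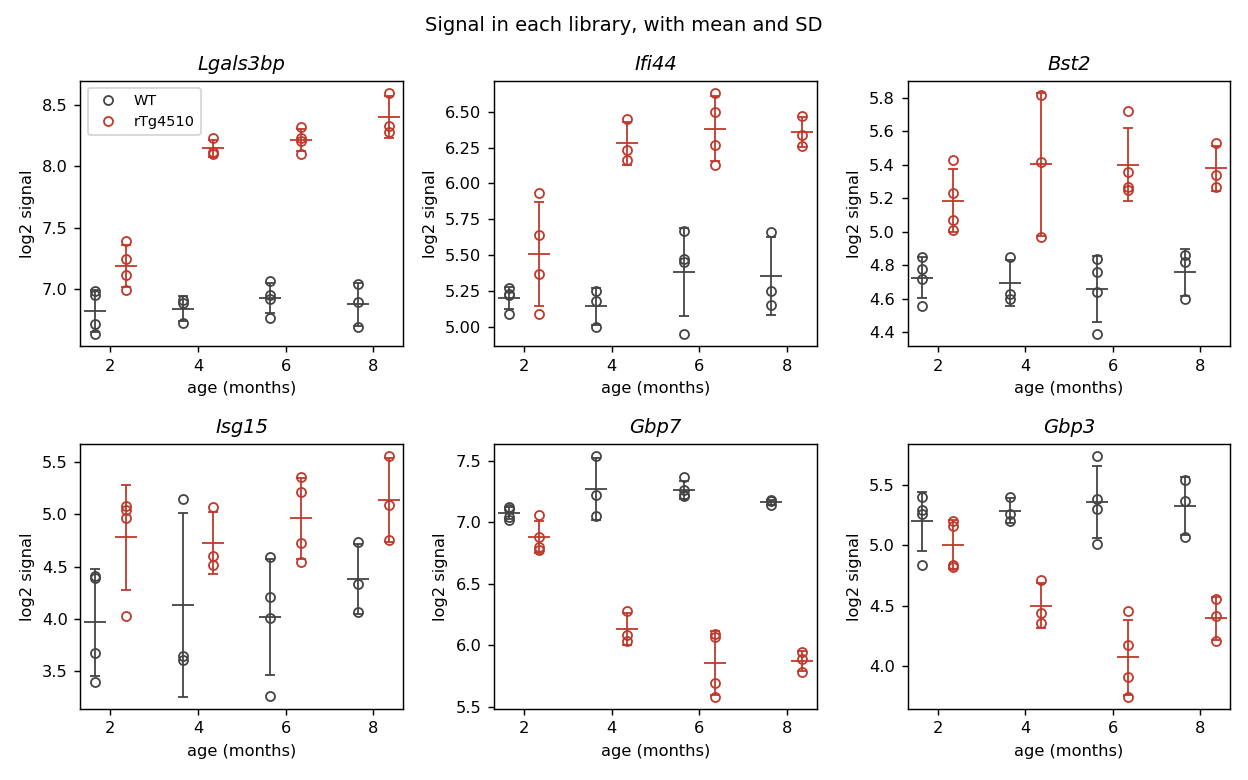
Log2 signal (y axis, each panel with its own range) of 6 genes in each library against age (x axis, months), with WT in grey and rTg4510 in red, offset from each other, and the mean and SD of each group. Lgals3bp and Ifi44 lie above WT and Gbp7 and Gbp3 below WT without overlap from 4 months on, while the Isg15 groups overlap at 2, 4 and 6 months.

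To find which genotype effects changed with age, the differences between the fold changes of successive ages were tested. Between 2 and 4 months 4 of the 43 genes differed, where 4.66% of all genes did (3.77% with a rise and 0.893% with a fall). The effect grew by 1.11 for Zbp1 (SE 0.297, FDR 0.025), by 0.95 for Lgals3bp (SE 0.154, FDR 0.000537) and by 0.83 for Ifi44 (SE 0.252, FDR 0.0493), and it changed by -0.95 for Gbp7 (SE 0.162, FDR 0.000878). The call for Zbp1 held in 24 of 28 fits that left out 1 library (lost without replicate 2 or 4 of rTg4510 at 2 months, replicate 4 of rTg4510 or replicate 1 of WT at 4 months). The call for Ifi44 lay at the threshold and was kept in 7 of these 28 fits. Between 4 and 6 months none of the 43 genes differed, beside 0.156% of all genes (0.0377% up and 0.118% down). An unadjusted p under 0.05 was found there for 1 of the 43, beside 1514 of all 18588 genes. Between 6 and 8 months none differed, beside 0% of all genes, and 3 of the 43 had an unadjusted p under 0.05, beside 841 of all genes. The change from 2 to 8 months, a comparison added after the values had been seen, was called for 2 genes, Lgals3bp (1.16, FDR 3.92e-05) and Gbp7 (-1.10, FDR 0.000138), beside 6.7% of all genes (4.85% up and 1.85% down). Trim25 passed the FDR but not the minimum fold (0.54, FDR 0.00925). The other 40 genes did not pass the FDR.

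To separate age from genotype, 8 months was compared with 2 months within each genotype. In WT none of the 43 genes was a DEG by limma's linear model, beside 1.27% of all genes (0.533% up and 0.737% down). After quantile normalization 1 gene passed, and without the minimum fold 1 gene, Sp100 (0.50, FDR 0.0315). Of the 43 genes, 15 had an unadjusted p under 0.05, beside 3561 of all 18588 genes, and 32 had a positive log2 fold change. In rTg4510 17 were DEGs, beside 10.5% of all genes (5.72% up and 4.78% down). Of these, 15 were up-regulated with age (Zbp1, Ifi204, Ifit2, Oas3, Oasl2, Usp18, Ifitm3, Rsad2, Cmpk2, Mx1, Sp100, Slfn2, Slfn5, Ifi44 and Lgals3bp) and 2 were down-regulated (Gbp3 and Gbp7). The median log2 fold change with age was 0.19 in WT and 0.40 in rTg4510, beside -0.037 and -0.031 over all genes.

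Several genes that rose with age in rTg4510 also had positive values in WT. Oas3 changed by 1.30 in rTg4510 (SE 0.407, FDR 0.0256) and by 1.07 in WT (FDR 0.146), and Cmpk2 by 1.4 (FDR 0.0346) and 0.76 (FDR 0.396). In contrast, Lgals3bp changed by 1.22 in rTg4510 (FDR 5.14e-08) and by 0.05 in WT (FDR 0.842). Gbp7 changed by -1.01 (FDR 1.52e-06) and 0.09 (FDR 0.73). For Lgals3bp and Gbp7 the difference between these changes is the 2 to 8 month comparison above, and for Oas3 and Cmpk2 it was not called (0.23, FDR 0.883, and 0.65, FDR 0.652).

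**Figure D4:**
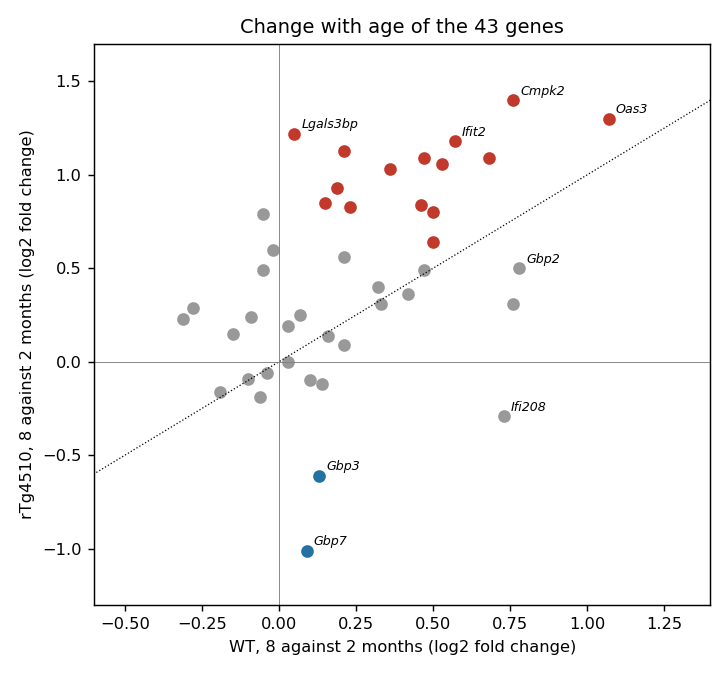
Log2 fold change from 2 to 8 months in WT (x axis) and in rTg4510 (y axis) for each of the 43 genes, with genes called up in rTg4510 in red, called down in blue and not called in grey. The dotted line marks equal change, and Lgals3bp (0.05 in WT and 1.22 in rTg4510) and Gbp7 (0.09 and -1.01) lie far from it.

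The level of the 43 genes in a library was taken as the mean deviation of the genes from their means over the 28 libraries, and is given as a description. It averaged, in order of age, -0.22, -0.20, -0.07 and 0.01 in WT and -0.06, 0.04, 0.17 and 0.39 in rTg4510. The rTg4510 libraries of 6 months fell apart, with 0.30 and 0.34 in replicates 1 and 2 and 0.01 and 0.03 in replicates 3 and 4 (SD 0.174, n = 4). In replicates 1 and 2 34 and 38 of the 43 genes lay above the mean of their group, and in replicates 3 and 4 9 and 12 did, while 48.4% to 53.2% of all genes did so in these 4 libraries. The summed neutrophil markers of the same libraries were 9.24, 9.06, 9.15 and 8.98, and their part in the split was not tested. Without replicate 1 of WT the up-regulated count at 6 months was 7, besides the losses given above for replicates 1 and 2 of rTg4510 and replicate 2 of WT. In WT at 8 months the levels were -0.12, 0.16 and 0.00. After the group means had been removed, the mean pairwise correlation across the 28 libraries was 0.112 among the 43 genes and 0.00751 among all genes.

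**Figure D5:**
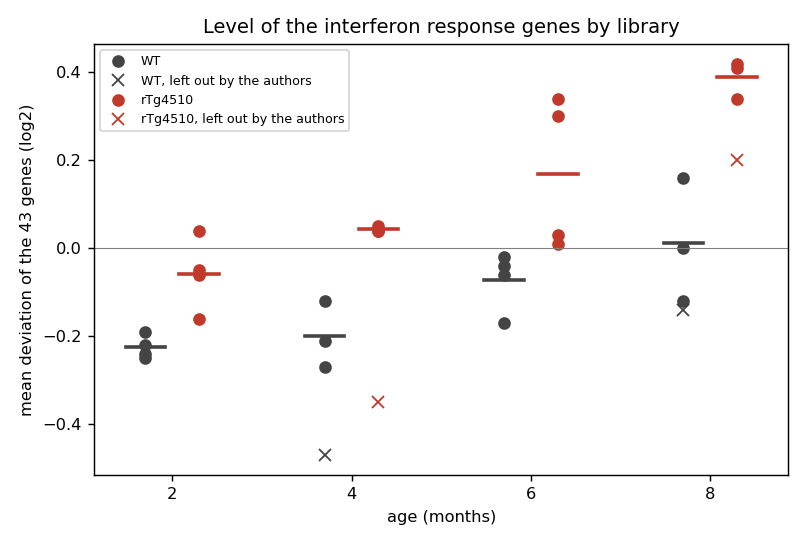
Level of the 43 genes in each library, as the mean deviation from the mean of each gene over the 28 kept libraries (y axis, log2) against age (x axis, months), with WT in grey, rTg4510 in red, a bar at the mean of the kept libraries of each group, and crosses for the 4 libraries left out by the authors. The rTg4510 libraries of 6 months lie in 2 pairs, at 0.30 and 0.34 and at 0.01 and 0.03, and those of 8 months between 0.34 and 0.42.

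Genes of the pathway outside the 43 were taken from hand-written lists. Of 21 interferon ligands 2 were measured, Ifnb1 and Ifnk, and neither was a DEG at any age. Ifnb1 spread from 1.38 to 6.12 within rTg4510 at 2 months, so the data say little on it. Of 9 receptor and kinase genes, Ifnar1, a subunit of the type I receptor, was up-regulated at 8 months (0.63, FDR 5.36e-06), with 0.28 and 0.47 at 4 and 6 months. Ifngr1, of the interferon gamma receptor, was down-regulated at 4 and 8 months (-0.63 and -0.62), with -0.51 at 6 months.

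Among the transcription factors of the pathway, Irf8 was up-regulated at 6 months (log2 fold change 0.61), and Irf1 (0.82) and Irf7 (1.02) were up-regulated at 8 months. Stat2 and Irf9, which take part in binding the ISRE, had log2 fold changes of 0.27 and 0.05 at 8 months and were not DEGs. Among 13 genes that sense nucleic acids upstream of interferon, Sting1, the adaptor of DNA sensing, was down-regulated at 6 and 8 months (-0.65 and -0.71), as was Tlr3 (-0.92 and -0.74), and the kinase Ikbke was up-regulated at 8 months (0.84, FDR 0.0308). Among 12 inhibitors, Tnfaip3 was up-regulated at 4, 6 and 8 months (1.09, 1.72 and 1.61) and Nlrc5 at 6 and 8 months (0.75 and 1.15).

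Of 58 other interferon-induced genes that were measured, 4, 5 and 5 were up-regulated and 3, 3 and 2 down-regulated at 4, 6 and 8 months, and their median log2 fold changes were -0.10, -0.05 and 0.06. The up-regulated shares of 6.9%, 8.62% and 8.62% were below those of all genes (9.47%, 11.3% and 10.5%). Ifi27l2a (1.51, 0.73 and 0.93), Tor3a (0.71, 0.72 and 0.97) and Ms4a4c (1.37, 1.31 and 0.95) were up-regulated at each of these ages. Among 12 immunity-related GTPases and interferon gamma targets, the chemokine Cxcl10 (2.35, 1.42 and 1.92) and the checkpoint ligand Cd274 (2.02, 1.67 and 1.96) were up-regulated at these ages, Cd274 also at 2 months (0.75, FDR 0.00197), and the GTPase Irgm2 was down-regulated at 4 and 6 months (-0.72 and -0.83). Of 13 genes of MHC class I and the immunoproteasome, 4, 5 and 5 were up-regulated (30.8%, 38.5% and 38.5%, beside the same shares of all genes) and 0 down-regulated (4.33%, 8.54% and 5.37% of all genes), with H2-D1 at 1.32, 1.42 and 1.6 and B2m at 0.83, 0.82 and 0.86.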

How the data were processed

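The 32 libraries had been prepared with the Ovation RNA-Seq System V2, which does not mark strand, and sequenced on HiSeq2000. The deposited values are log2 gene signals. The authors dropped exons that had under 10 counts in over 80% of samples, derived 1 signal per gene from its summed exon reads by a robust linear model, and applied median normalization after the log2 transformation, so that the median of each library is 5.63. The labels name the build GRCm38, while the aligner and annotation are not given in the sources used here, nor is the treatment of reads that match several genes. All columns of values were used (0 left out).

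Genotype, age and replicate number were taken from the labels. The gene list, its roles and the lists of other pathway and marker genes were chosen with earlier results of these data known, and the comparison of 2 with 8 months between genotypes was added after the values had been seen. Named genes are those with the highest and lowest mean fold change of each role, those down-regulated, those whose genotype effect differed between successive ages, measured ligands, and pathway genes called at 3 or 4 ages. Other genes were named after their values had been seen. Some listed genes are not reported here. In R 4.3.3, with limma 3.58.1 and data.table (version 1.17.8), a linear model with 8 group means and unmoderated variances (20 residual degrees of freedom) was fitted to the 28 kept libraries. FDR values were Benjamini-Hochberg adjusted over 18588 genes within a contrast, with no filter on low signals. The exact depth of each library is unknown, which leaves counting error without an interval. The 3 or 4 libraries per group limit the precision. Low values fall in part where a count has had 1.5 added before the log2 (33.1% at whole counts and 25.4% midway between, within 0.003), from which a count was inferred. This reading rests on the values alone. The model was tested on simulated data with normal errors. It called 65%, 51%, 68% and 59% of 2-fold changes at 2, 4, 6 and 8 months. Of 4-fold changes it called 91%, 85%, 92% and 83%. Changes of these sizes could thus be missed, and not equally at all ages.

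Both genotypes have the same replicate numbers. Deviations of same-numbered libraries from their group means had Pearson r across genes from 0.131 to 0.153 at 6 months and from 0.15 to 0.291 at 8 months, so the numbers were held to mark pairs at these ages, on the values alone. Reported calls come from the model without a block, and the block is an alternative. At 2 months (0.0649 to 0.167) and 4 months (-0.0999 to 0.124) not all exceeded 0.1.

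Of the Entrez numbers, 95.9% were named from the RefSeq annotation of GRCm38.p6, which also gave coordinates and promoters. Of the 43 genes, 17 overlap another annotated gene, and their reads cannot be told apart without strand. Promoters were searched with Python 3.11.15 (pandas 2.3.3, numpy 2.4.6), and figures drawn with matplotlib 3.10.9. The alternatives tried were all 32 libraries, quantile normalization, a replicate block, moderated variances, genes above the 25th percentile of signal, no minimum fold, the compared groups alone, leaving out each library, and the 40 genes above the floor.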

Additional observations from a re-analysis of the deposited data

Results flagged for a closer look

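In groups of 4 libraries, 7 values of 176 sets of values lay far from the other 3 by Dixon's criterion, where chance flags about 1 in 20, or 8.8 sets. At 2 months in rTg4510 these were Oas3 in replicate 1 (4.43, with the next library at 5.56), Isg15 in replicate 2 (4.03, next 4.97), Dtx3l in replicate 4 (7.29, next 7.10) and Slfn8 in replicate 3 (7.54, next 7.72). At 6 months they were Cmpk2 in replicate 3 of rTg4510 (4.99, next 6.49), and Dhx58 (4.07, next 4.52) and Slfn8 (7.90, next 7.87) in replicate 2 of WT. The number is no larger than chance gives.

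The genotype effect differed between ages, by the interaction of genotype and age, for 4 genes between 2 and 4 months. The differences in log2 fold change were 1.11 for Zbp1, 0.83 for Ifi44, 0.95 for Lgals3bp and -0.95 for Gbp7. Between 2 and 8 months they were 1.16 for Lgals3bp and -1.10 for Gbp7.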

How the results depend on the processing

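Of the counts and medians, 96 kept their direction and roughly their size under the alternatives other than leaving out 1 library, and 11 moved. Size was judged with a tolerance, so a count held as kept could still differ by several genes. In the fits that left out 1 library, 463 were held as kept and 13 moved. Of the calls of single genes (all 32 libraries, quantile normalization, block and the extremes of leaving out 1 library), 170 held, 44 kept their direction but no longer passed, and 1 turned. The up-regulated count at 6 months was 4 with all 32 libraries, against 11, and the genes whose effect differed between 2 and 4 months numbered 1, against 4. With the compared groups alone, 3 genes were up-regulated at 4 months, 7 at 8 months, and 2 differed between 2 and 4 months. Without a minimum fold, 1 gene was up-regulated at 2 months, 4 and 6 were down-regulated at 4 and 6 months, and 1 was a DEG with age in WT, as was 1 after quantile normalization. Quantile normalization moved all genes at 2 months from 293 up and 75 down to 213 and 99. Trex1 at 4 months was -0.02 with all 32 libraries. The cause of these moves was not tested.

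With the replicate number as a block, 2 genes differed between 2 and 4 months, and 5, 10 and 13 genes were up-regulated at 4, 6 and 8 months. At 4 months Trex1 and Usp18 were not DEGs with the block (FDR 0.0564 and 0.0689). Besides these and the losses and the gain named at 6 and 8 months, Zbp1 and Ifi44 lost their difference between 2 and 4 months (FDR 0.0563 and 0.0762), and no call of direction by genotype turned.

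Leaving out 1 library gave 0 to 1, 5 to 9, 5 to 11 and 10 to 15 up-regulated genes in order of age, a median of 0.33 to 0.54 at 8 months (lowest without WT replicate 1 and highest without WT replicate 2), 2 to 4 genes that differed between 2 and 4 months (2 without rTg4510 replicate 2 of 2 months, rTg4510 replicate 4 of 4 months or WT replicate 1 of 4 months), 0 to 1 DEGs with age in WT, and 12 to 18 in rTg4510. Down-regulated counts stayed at 0, 2, 3 and 2. With 3 or 4 pools per group, differences of widely spread genes such as Isg15 could not be settled. The unknown exact depth of each library leaves genes near the floor, Ifi208 above all, without a usable fold change.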
